A study of Mus musculus with 17 samples.

Results

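The 10 genes described here belong to the growth hormone, STAT5 and IGF axis and were followed through mouse liver and isolated mouse hepatocytes that carry lesions in the sphingomyelin synthase family. The members were taken by name: the receptor Ghr, the transcription factors Stat5a and Stat5b, the secreted products Igf1 and Igfals, the feedback inhibitors Socs2, Cish and Socs3, and the repressors Bcl6 and Cux2. These 10 genes were all present among the 49315 genes of the liver files and the 15632 genes of the hepatocyte files, and all 10 passed the filter on low counts in both. Liver came from WT and SMSrKO mice (4 libraries each) that had a high-fat diet and fructose in the drinking water for 16 weeks. Hepatocytes came from WT, Sms1/Sms2-dKO (dKO) and Sms1/Sms2/Smsr-tKO (tKO) mice at 2 months of age, freed with collagenase, with 3 libraries each. The labels state no diet for the hepatocyte mice, no age for the liver mice, and neither sex, strain nor the kind of allele for any group. They give an n of 3 per hepatocyte group without tying a library to an animal, and name no animals for liver. The spread that p-values rest on here may therefore be technical.

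Growth hormone binds GHR on hepatocytes and activates the kinase JAK2, which phosphorylates STAT5A and STAT5B; these then enter the nucleus and bind DNA. Igf1, Igfals, Socs2 and Cish are among their best known liver targets, and the SOCS proteins and CIS in turn damp the receptor. In rodents the pituitary releases growth hormone in pulses in males and more evenly in females, and through STAT5 this pattern sets the sex bias of many liver genes, including Mup and Cyp genes. BCL6 is a male-biased repressor that competes with STAT5 at DNA, and CUX2 is a female-biased repressor of male-biased genes.

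STAT proteins bind palindromes of the form TTCNNNGAA, which reads the same on both strands. These letters were searched in the 250 bases before each annotated start (RefSeq, GRCm38.p6). Of the 10 members, 9 had an entry, with 16 windows in all, and 5 windows of 3 members, Bcl6, Igfals and Socs3, held at least 1 match. That is 31.2% of the members' windows, against 7.02% of 32851 windows over all genes and 6.1% of 15387 windows of genes listed in hepatocytes. Counted by gene, 3 of 9 members (33.3%) held a match, against 8.13% of 27025 genes. With 16 windows for 9 members and 32851 for 27025 genes, members had more windows per gene in which to match. Windows of one gene can overlap, and a match is a description of the letters, not of binding. Below, the part outside annotated exons of 1 matching window of each of the 3 members is shown, with the matches in capitals, because these members hold the letters close to a start. Each window lies upstream of 1 RefSeq start, and a gene can have several starts. The Bcl6 and Socs3 stretches lie inside the whole-gene positions given further below, downstream of the outermost start. The Igfals stretch lies before its whole-gene position.
Bcl6, chr16:23981284-23981533, minus strand: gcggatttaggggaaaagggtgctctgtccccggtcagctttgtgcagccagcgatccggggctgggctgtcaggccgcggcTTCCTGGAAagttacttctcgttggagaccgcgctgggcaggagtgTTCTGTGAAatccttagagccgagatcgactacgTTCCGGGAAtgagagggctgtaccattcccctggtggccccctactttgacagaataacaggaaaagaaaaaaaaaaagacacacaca
Igfals, chr17:24877981-24878214, plus strand: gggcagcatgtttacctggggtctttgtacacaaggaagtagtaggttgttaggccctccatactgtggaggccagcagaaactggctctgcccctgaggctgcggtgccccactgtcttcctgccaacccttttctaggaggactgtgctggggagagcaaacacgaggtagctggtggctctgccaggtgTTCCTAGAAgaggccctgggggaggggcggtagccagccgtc
Socs3, chr11:117969452-117969616, minus strand: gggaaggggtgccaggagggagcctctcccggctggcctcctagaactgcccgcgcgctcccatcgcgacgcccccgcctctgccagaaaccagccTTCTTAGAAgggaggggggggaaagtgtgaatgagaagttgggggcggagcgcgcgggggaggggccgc
The printed Bcl6 window held 3 matches, and those of Igfals and Socs3 held 1 each. A second window of Bcl6 and a second one of Igfals, not printed, held 1 match each, TTCTCAGAA in both. That Bcl6 window (chr16:23988853-23989102) adjoins the outermost start. The Igfals window nearest to the whole-gene position (chr17:24878497-24878746) held 0 matches. No match in the windows of Ghr, Igf1, Cish, Stat5a, Stat5b and Cux2 says only that these letters are not in those 250 bases. The Cish (chr9:107296409-107296658) and Igf1 (chr10:87860861-87861110) windows lie inside their whole-gene positions, and all 250 bases of each are annotated exon. The bases before the outermost start of those genes were thus not searched. The 3 genes did not move as a group in the comparisons that follow: in dKO hepatocytes Socs3 and Bcl6 rose and Igfals fell.

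Depth was 24391627 to 47351126 counts per liver library and 9221488 to 9665309 expected counts per hepatocyte library. Replicates varied by a common biological coefficient of 20.3% in liver against 3.52% in hepatocytes, so a change of a given size was far easier to detect in hepatocytes. RNA of Samd8, which encodes SMSr, did not check the group names. It was not lower in libraries labelled SMSrKO (log2 fold change 0.35, edgeR adjusted p = 0.218) and was higher in libraries labelled tKO than in WT (0.53, edgeR adjusted p = 5.41e-13). RNA of the genes of Sms1 and Sms2 is not given here. Whole-gene counts would not show a partial deletion, and the groups are called here by their labels. The extraction text names subcutaneous white fat for the SMSrKO experiment, but the 5 adipocyte markers summed to 0.307 to 2.60 CPM (counts scaled to library size) in these libraries and the 8 hepatocyte markers to 48861 to 82294 CPM. One liver library, WT 1, lay apart from the rest.

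In hepatocytes labelled dKO, the axis did not move in one direction. Igf1, Ghr, Socs2, Igfals and Stat5b fell against WT, while Socs3, Stat5a, Cish and Bcl6 rose, and Cux2 did not pass the test. The calls of Stat5b and Igfals were lost under several alternatives. The split of reads between Stat5a and Stat5b is uncertain, as given below. In hepatocytes labelled tKO, Igf1, Cux2, Socs2 and Ghr fell and Socs3 and Stat5a rose. Of the 10 members, 9 were called for dKO against WT, 6 for tKO against WT and 8 for tKO against dKO by edgeR's quasi-likelihood test at an adjusted p under 0.05. The same test called 44.0%, 47.4% and 29.5% of all 11471 genes in those comparisons. When the hepatocyte libraries were given the larger dispersion of liver, 3 (Igf1, Socs3 and Stat5a), 2 (Igf1 and Cux2) and 0 members passed edgeR's likelihood ratio test. Both comparisons with WT share the 3 WT libraries, and the comparison of tKO with dKO shares a group with each. Whether groups overlap is given below as a description, and the share of all genes without overlap was not counted.

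**Figure D1:**
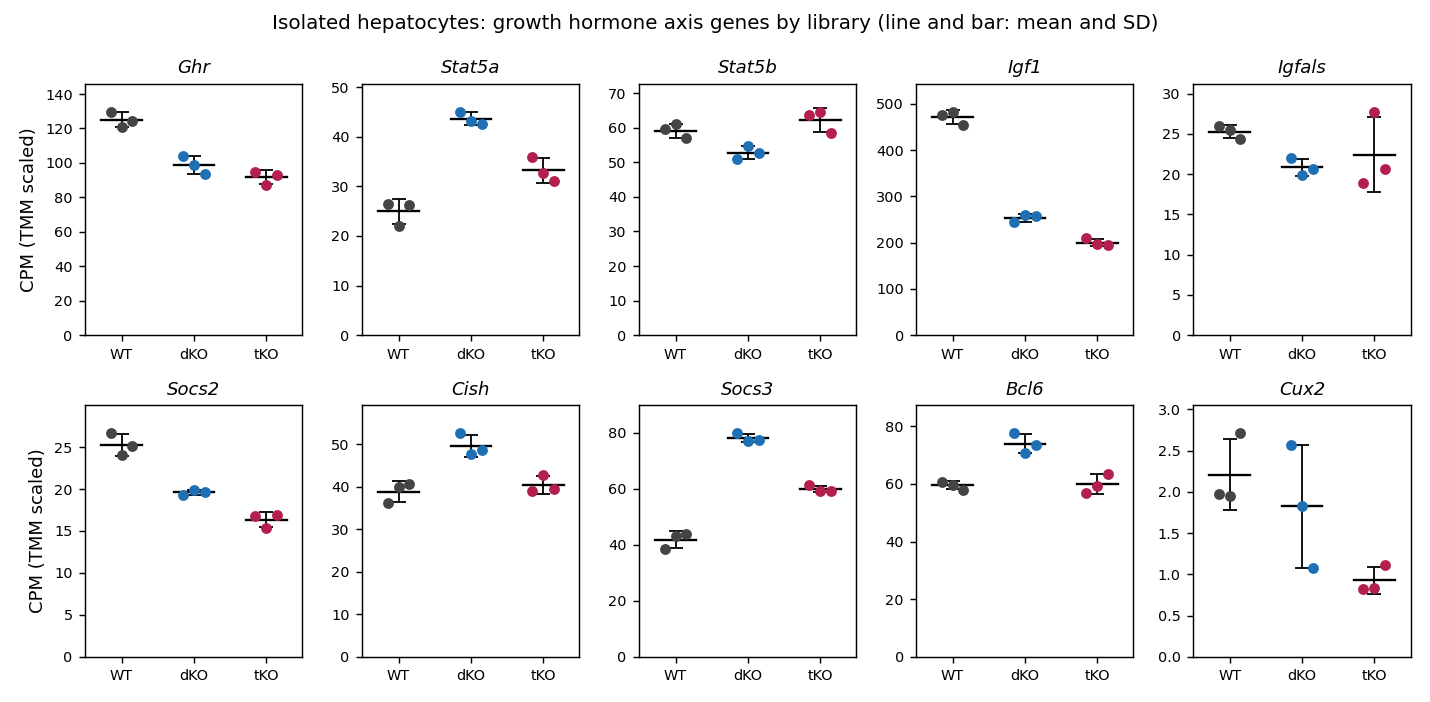
Level of each member in the 9 hepatocyte libraries, in CPM after TMM scaling (each vertical axis starts at 0 and has its own scale); points are libraries, the long line is the mean and the bar the SD of 3 libraries. Igf1 and Socs2 step down from WT to dKO to tKO with no overlap, while Socs3 and Stat5a are highest in dKO, with tKO between dKO and WT.

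Ghr, the growth hormone receptor (chr15:3317760-3583492, minus strand, GRCm38, as are the gene positions that follow), fell in both lesions. It stood at 129.8, 121 and 125 CPM in the WT libraries, at 104, 98.7 and 93.3 CPM in dKO and at 94.8, 87.2 and 93.1 CPM in tKO. Every WT library lay above every dKO and tKO library, and the dKO and tKO libraries overlapped. The log2 fold change was −0.34 ± 0.0523 (SE, edgeR adjusted p = 4.36e-08) for dKO against WT and −0.45 ± 0.0525 (edgeR adjusted p = 9.79e-12) for tKO against WT. Between tKO and dKO it was −0.10 ± 0.0539 and did not pass (edgeR adjusted p = 0.141).

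Stat5a (chr11:100859351-100885169, plus strand) and Stat5b (chr11:100780731-100850724, minus strand) are neighbouring genes whose proteins carry the signal from the receptor to DNA, and STAT5B is the major form in liver. Stat5a was listed at 26.5, 22.1 and 26.3 CPM in WT, at 45.1, 43.2 and 42.6 CPM in dKO and at 35.9, 32.7 and 31.0 CPM in tKO. The 3 groups did not overlap, with dKO highest and tKO in the middle. Its log2 fold change was 0.80 ± 0.0811 for dKO against WT (edgeR adjusted p = 3.28e-14), 0.41 ± 0.0843 for tKO against WT (edgeR adjusted p = 2.74e-05) and −0.39 ± 0.0765 for tKO against dKO (edgeR adjusted p = 2.16e-05). Stat5b was listed at 59.5, 61.1 and 57.0 CPM in WT, at 50.9, 54.8 and 52.7 CPM in dKO and at 63.7, 64.7 and 58.4 CPM in tKO. The dKO libraries were the lowest, by −0.16 ± 0.0647 against WT (edgeR adjusted p = 0.0321), a call that was lost without WT 1, WT 2, dKO 4 or dKO 6 (adjusted p up to 0.12), in DESeq2 and in limma on FPKM. Stat5b was higher in tKO than in dKO, by 0.24 ± 0.0637 (edgeR adjusted p = 0.00241), and tKO against WT gave 0.07 ± 0.0628 (edgeR adjusted p = 0.361).

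The split of reads between Stat5a and Stat5b is uncertain in hepatocytes. The expected counts of both genes were not whole in any of the 9 libraries, yet their sum was whole in each: WT 1, for example, had 241.58 and 543.42, which add up to 785. Stat5a took 26.6% to 31.6% of the pair in WT, 44% to 47% in dKO and 33.5% to 36% in tKO, and 22.4% to 29.2% in the 8 liver libraries, where counts were whole. Summed before the fit, an alternative added after seeing the data, the pair rose by 0.20 ± 0.0547 log2 in dKO (edgeR adjusted p = 0.00208) and by 0.18 ± 0.0545 in tKO against WT (edgeR adjusted p = 0.00405). The sum ran from 83.1 to 86.1 CPM in WT, from 95.3 to 98.0 CPM in dKO and from 89.4 to 99.6 CPM in tKO. Between tKO and dKO the summed pair differed by −0.02 ± 0.0535 (edgeR adjusted p = 0.864), and the opposite values of both genes in that comparison were not seen in their sum.

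**Figure D2:**
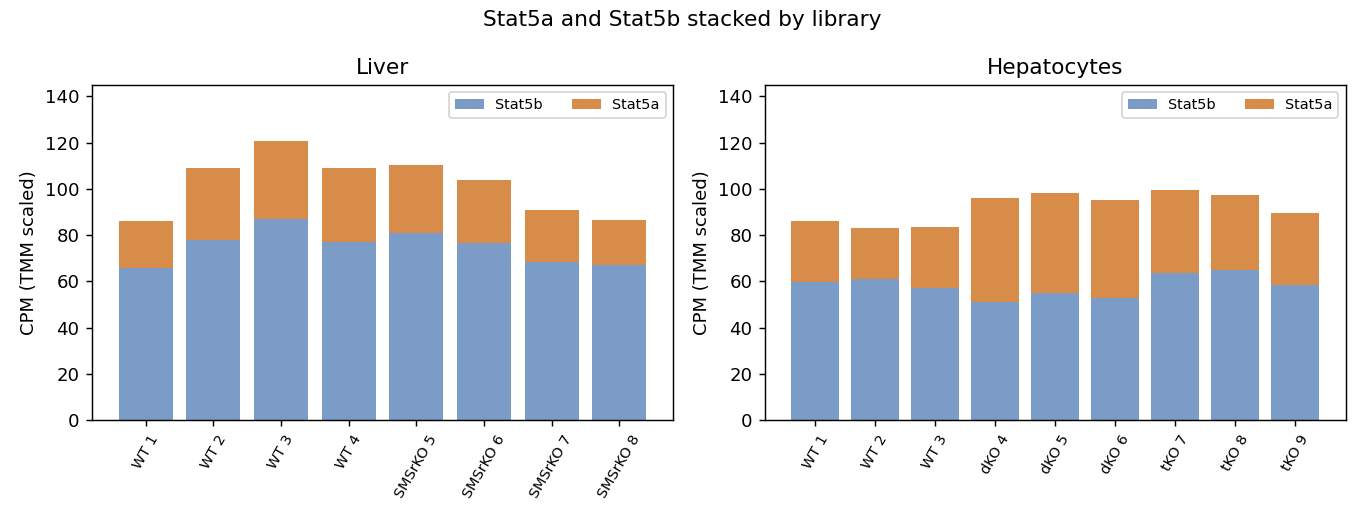
Stat5a and Stat5b stacked for each liver (left) and hepatocyte (right) library, in CPM after TMM scaling; the bar's full height is the sum of the pair. In hepatocytes the sums run from 83.1 to 99.6 CPM, and the share of Stat5a is largest in dKO, at 44% to 47%.

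Igf1, insulin-like growth factor 1 (chr10:87858265-87937042, plus strand), the hormone that the liver secretes in response to growth hormone, had the smallest p of the 10 members in both hepatocyte comparisons with WT. Its levels were 476, 483 and 454 CPM in WT, 244, 259 and 258 CPM in dKO and 209, 196 and 195 CPM in tKO. The groups did not overlap, and WT stood 1.86-fold above dKO and 2.35-fold above tKO. The log2 fold change was −0.89 ± 0.0408 for dKO against WT (edgeR adjusted p = 6.47e-33), −1.24 ± 0.0416 for tKO against WT (edgeR adjusted p = 4.89e-42) and −0.34 ± 0.0429 for tKO against dKO (edgeR adjusted p = 2.72e-10).

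Igfals (chr17:24878770-24882008, plus strand) encodes the acid-labile subunit, which holds IGF1 and its binding protein in a long-lived complex in blood. It stood at 26.0, 25.5 and 24.4 CPM in WT, at 22.0, 19.9 and 20.7 CPM in dKO and at 18.9, 27.8 and 20.6 CPM in tKO. The dKO libraries lay below WT, by −0.28 ± 0.0996 (edgeR adjusted p = 0.0186), a call lost without WT 1 or dKO 5 (adjusted p up to 0.0716), in DESeq2 and in limma on FPKM. In tKO 1 library decided the value: with tKO 8, the highest of all 9 libraries, tKO against WT was −0.17 ± 0.0976 (edgeR adjusted p = 0.139), and without it −0.36 (edgeR adjusted p = 0.00274).

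Socs2 (chr10:95385362-95417180, minus strand), an inhibitor of growth hormone signalling whose loss gives oversized mice, fell in both lesions. It stood at 26.6, 24 and 25.1 CPM in WT, 19.3, 19.9 and 19.6 CPM in dKO and 16.8, 15.4 and 16.9 CPM in tKO, with no overlap between groups. The log2 fold change was −0.36 ± 0.0932 for dKO (edgeR adjusted p = 0.000784) and −0.63 ± 0.0956 for tKO against WT (edgeR adjusted p = 4.46e-08). For tKO against dKO it was −0.26 ± 0.0998 (edgeR adjusted p = 0.039), a call lost without dKO 4, dKO 5, dKO 6, tKO 8 or tKO 9 (adjusted p up to 0.141), in DESeq2, with scaling by library totals and with no filter.

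Cish (chr9:107296026-107302784, plus strand), which encodes the STAT5-induced inhibitor CIS, did not follow Socs2. Its levels were 36.1, 39.9 and 40.5 CPM in WT, 52.5, 47.6 and 48.6 CPM in dKO and 38.9, 42.8 and 39.4 CPM in tKO. The dKO libraries lay above all others, by 0.35 ± 0.0719 against WT (edgeR adjusted p = 2.73e-05), and tKO lay below dKO by −0.30 ± 0.0708 (edgeR adjusted p = 0.00053). WT and tKO overlapped, at 0.05 ± 0.0737 (edgeR adjusted p = 0.573).

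Socs3 (chr11:117966079-117970047, minus strand), an inhibitor that STAT3 induces downstream of interleukin-6 as well as growth hormone, had the largest rise among the members. It stood at 38.4, 43.2 and 43.9 CPM in WT, 79.8, 77.2 and 77.2 CPM in dKO and 61.3, 59.2 and 59.2 CPM in tKO. The groups did not overlap. The log2 fold change was 0.90 ± 0.0643 for dKO (edgeR adjusted p = 2.24e-21), 0.52 ± 0.0663 for tKO against WT (edgeR adjusted p = 2.32e-10) and −0.38 ± 0.0604 for tKO against dKO (edgeR adjusted p = 2.59e-07).

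Bcl6 (chr16:23965052-23988852, minus strand), the male-biased repressor, had the same shape as Cish. Its levels were 60.7, 59.7 and 58.0 CPM in WT, 77.5, 70.8 and 73.5 CPM in dKO and 56.8, 59.4 and 63.5 CPM in tKO. In CPM the dKO libraries alone stood apart, 0.32 ± 0.0613 above WT (edgeR adjusted p = 1.17e-05), with tKO −0.30 ± 0.0607 below dKO (edgeR adjusted p = 3.57e-05). For tKO against WT the log2 fold change was 0.01 ± 0.0627 (edgeR adjusted p = 0.909). That value depends on the scaling: per length, tKO stood at 15.4 to 17.4 FPKM against 14.6 to 14.7 FPKM in WT, with no overlap, and limma on log2(FPKM + 0.1) gave 0.16 (limma adjusted p = 0.0598). The length that the files list for Bcl6 also differed between these groups.

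Cux2 (chr5:121856366-122050102, minus strand), the female-biased repressor, was the least abundant member in hepatocytes and its values rest on few reads. It had 18, 18 and 25 counts in the WT libraries, 24, 17 and 10 in dKO and 8, 8 and 11 in tKO. All tKO libraries lay below all WT libraries, at 0.825 to 1.12 CPM against 1.95 to 2.71 CPM, a log2 fold change of −1.24 ± 0.352 (edgeR adjusted p = 0.00227). The dKO libraries spanned 1.08 to 2.56 CPM and overlapped both other groups. For dKO against WT the value was −0.27 ± 0.308 (edgeR adjusted p = 0.5). For tKO against dKO it was −0.97 ± 0.366 (edgeR adjusted p = 0.0363), a call lost without dKO 4, dKO 5, tKO 7 or tKO 8 (adjusted p up to 0.297), in DESeq2 and in limma on FPKM.

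**Figure D3:**
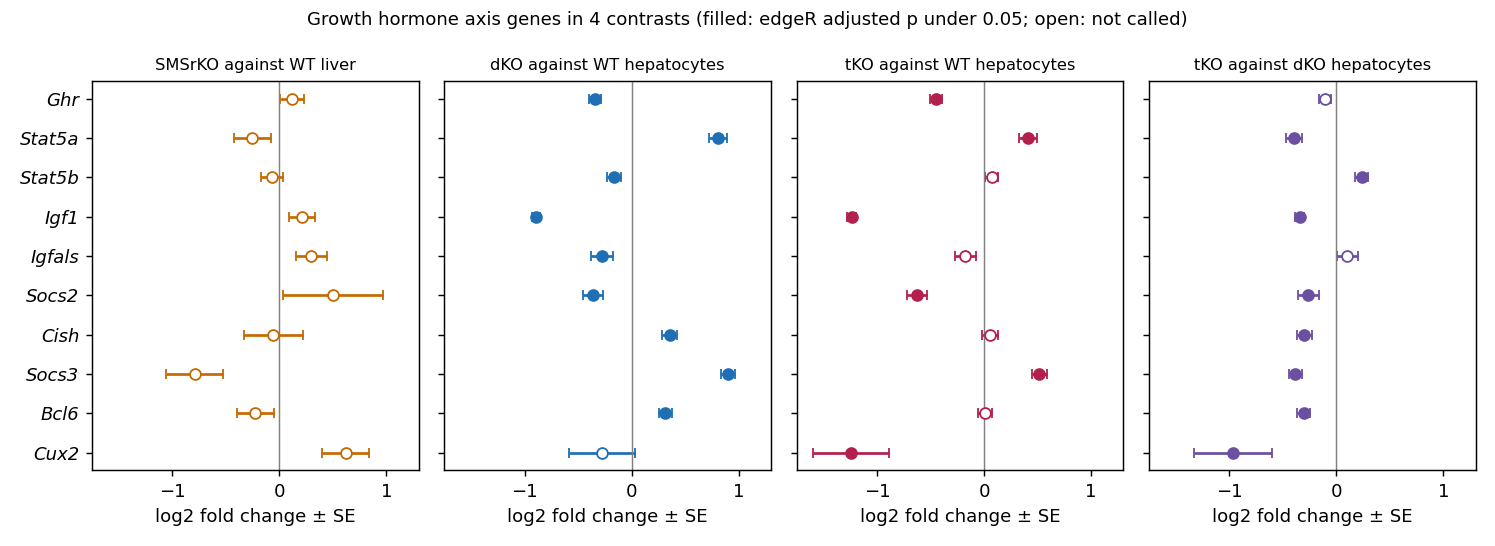
Log2 fold change with its standard error for the 10 members in the 4 comparisons, from edgeR; filled points passed at an adjusted p under 0.05 over all genes and open points did not. In the 3 hepatocyte panels the members spread to both sides of 0, with Igf1 at −0.89, −1.24 and −0.34, and in liver all 10 points are open.

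Per unit of length, Ghr and Igf1 led the members in WT hepatocytes at 67.2 ± 3.50 and 66.4 ± 2.02 FPKM (SD, n = 3), and these neighbours in the order overlapped. Socs3 and Bcl6 followed at 15.5 and 14.6 FPKM and overlapped, then Cish, Igfals, Stat5b and Socs2 between 13.1 and 11.7 FPKM, each overlapping the next. Stat5a at 6.53 and Cux2 at 0.447 FPKM closed the order. In dKO Ghr (50.5 FPKM) and Igf1 (35.9 FPKM) no longer overlapped, nor did Igf1 and Socs3 (29.0 FPKM). The order in tKO began in the same way, with Ghr at 47.4, Igf1 at 28.8 and Socs3 at 22.6 FPKM.

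In liver of mice on the diet, 0 of the 10 members were called for SMSrKO against WT by edgeR, against 0.234% of all 15820 genes, and DESeq2 and limma also called 0. At an unadjusted p under 0.05 there were 2 members, Cux2 and Socs3, beside 2075 of all 15820 genes. Cux2 was the member whose groups did not overlap, at 65.5, 31.6, 42.9 and 61.3 CPM in WT and 89.3, 67.2, 84.1 and 68.9 CPM in SMSrKO, a log2 fold change of 0.62 ± 0.219 (edgeR adjusted p = 0.282). The share of all genes whose liver groups do not overlap was not counted. Socs3 stood at 50.5, 21.5, 28.3 and 34.9 CPM in WT and 18.3, 17.9, 26.7 and 15.4 CPM in SMSrKO. WT 1 was the highest Socs3 library, and the log2 fold change was −0.79 ± 0.268 (edgeR adjusted p = 0.267) with it and −0.53 (edgeR adjusted p = 0.294) without it. WT 1 also held 47719 CPM of summed acute phase genes, the top of a WT range that began at 18173 CPM, while SMSrKO spanned 18980 to 21783 CPM; its part in the Socs3 value was not tested beyond leaving it out.

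The growth hormone receptor and its secreted products overlapped between the liver groups. Igf1 was at 429.9, 348, 375 and 379 CPM in WT and 498, 391, 492 and 393 CPM in SMSrKO (0.21 ± 0.123, edgeR adjusted p = 0.498). Igfals was at 114 ± 13.7 and 140.2 ± 26.1 CPM (SD, n = 4 each; 0.30 ± 0.143, edgeR adjusted p = 0.407). Ghr was at 393 ± 30.7 and 426 ± 41.1 CPM (0.12 ± 0.109, edgeR adjusted p = 0.677). For each of these genes the libraries of the 2 groups overlapped and the test was not passed.

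The inhibitors Socs2 and Cish also overlapped between the liver groups. Socs2 ran from 8.85 CPM in WT 1 to 38.7 CPM in WT 4, and from 23.1 to 54.4 CPM in SMSrKO, with a log2 fold change of 0.50 ± 0.465 that became 0.21 without WT 1 (edgeR adjusted p = 0.683 and 0.827). Cish spanned 19.9 to 40.1 CPM in WT and 19.2 to 37.1 CPM in SMSrKO (−0.06 ± 0.273, edgeR adjusted p = 0.95; −0.18 and 0.825 without WT 1). Stat5a stood at 20.6, 31.2, 33.7 and 31.9 CPM in WT and 29.6, 27.4, 22.2 and 19.4 CPM in SMSrKO (−0.25 ± 0.176, edgeR adjusted p = 0.574). WT 1 was the only WT library within the SMSrKO range, and without it the value was −0.39 (edgeR adjusted p = 0.209). Stat5b (−0.07 ± 0.102) and Bcl6 (−0.22 ± 0.170) also overlapped, with edgeR adjusted p of 0.797 and 0.607, and stood at −0.14 and −0.13 without WT 1 (edgeR adjusted p = 0.498 and 0.773). Per length, liver WT ranked Igfals (121 ± 11.3 TPM), Ghr (97.0 ± 2.19 TPM) and Igf1 (86.5 ± 4.56 TPM) first with no overlap between neighbours, then Stat5b (31.2 TPM) and Socs3 (25.9 TPM), which overlapped. Cux2 followed in the sixth place at 11.1 ± 3.32 TPM in WT, and in SMSrKO it stood above Socs3 at 16.5 ± 2.04 TPM, an order in which the 2 genes overlapped. In WT, Cux2, Cish, Stat5a, Bcl6 and Socs2, from 11.1 down to 6.09 TPM, each overlapped the next.

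**Figure D4:**
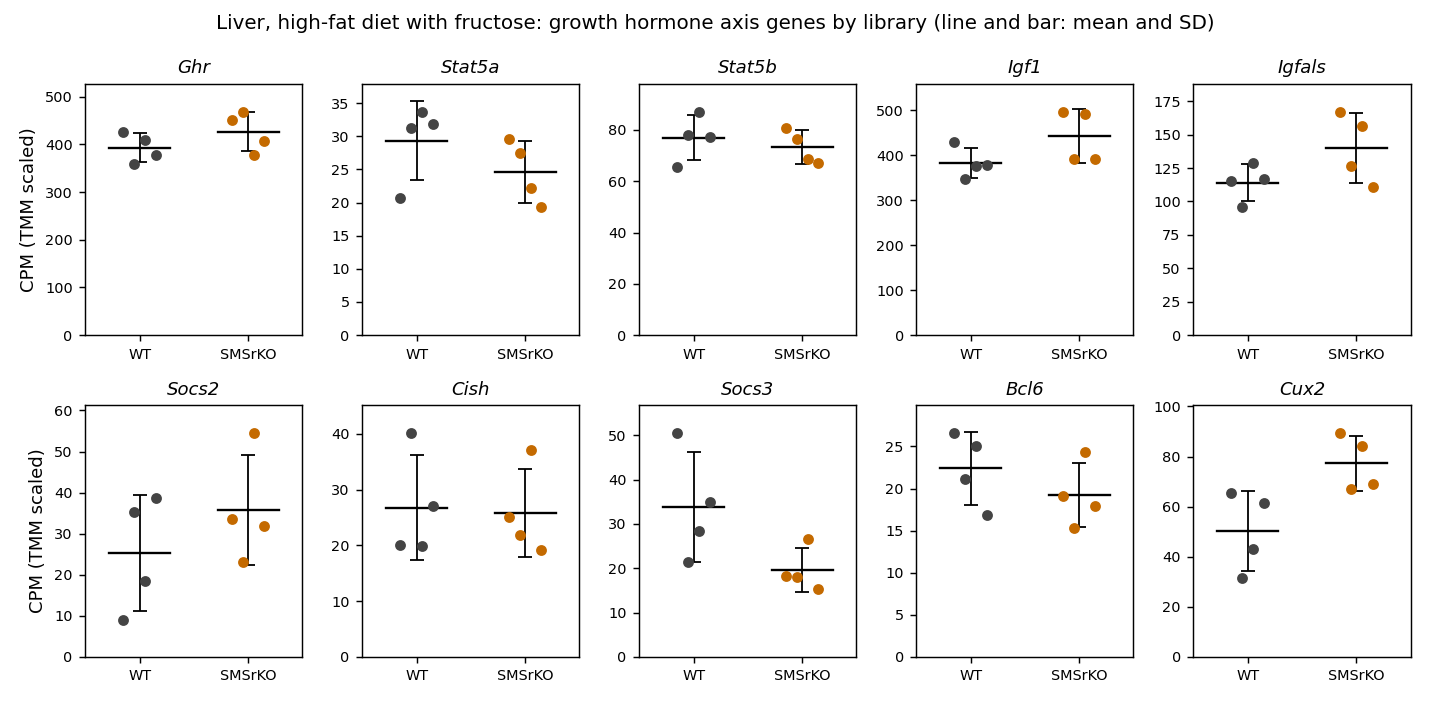
Level of each member in the 8 liver libraries, in CPM after TMM scaling (each vertical axis starts at 0 and has its own scale); points are libraries, the long line is the mean and the bar the SD of 4 libraries. The groups overlap for 9 members, and for Cux2 every SMSrKO library lies above every WT library. The share of all genes that separate in this way was not counted.

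The rest of the pathway was taken from a list of 58 other genes, of which 50 were tested in hepatocytes and 54 in liver. For dKO against WT, 20 rose and 17 fell, with a median log2 fold change of 0.07 beside −0.01 over all genes. For tKO against WT, 18 rose and 16 fell (median −0.06 beside 0.00), and for tKO against dKO 8 rose and 15 fell (median −0.02 beside 0.00). In each of these comparisons the list moved both ways. Over all genes, 44.0%, 47.4% and 29.5% were called in them, the share to set beside the counts of this list and its parts. Among 14 receptors and kinases, 10 passed in dKO, 6 higher and 4 lower: the leptin receptor Lepr (−1.63 ± 0.117) and the prolactin receptor Prlr (−0.57 ± 0.0524) fell, while the insulin receptor substrate Irs2 (1.29 ± 0.149) and Jak2, the kinase bound to GHR (0.44 ± 0.0653), rose. In tKO, 4 were higher and 7 lower than in WT. The adaptor Grb10, which restrains insulin and IGF1 receptors, fell there by 1.12 ± 0.0980 log2 against WT and by 1.56 ± 0.0930 against dKO.

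Of 11 other inhibitors, 4 rose and 3 fell in dKO and likewise in tKO against WT, and 1 rose and 5 fell in tKO against dKO. Socs1, a JAK inhibitor of the same family as Socs3, stood at 3.95 ± 0.433 CPM in WT, 9.95 ± 1.20 in dKO and 7.14 ± 0.461 in tKO (SD, n = 3). It rose by 1.33 ± 0.172 log2 in dKO (edgeR adjusted p = 3.67e-10) and by 0.85 ± 0.181 in tKO against WT (edgeR adjusted p = 4.96e-05). The adaptor Sh2b3, a brake on JAK2, rose by 0.58 ± 0.0895 in dKO. Ptpn11, the phosphatase SHP2, fell by 0.14 ± 0.0421 in dKO and by 0.25 ± 0.0422 in tKO against WT.

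Of 13 IGF carriers and ligands, 7 were tested in hepatocytes. Igfbp7, which binds IGFs weakly, rose by 3.22 ± 0.190 log2 in dKO, from 1.67 to 15.7 CPM, and Stc1, an inhibitor of the IGFBP-cleaving protease PAPP-A, by 4.85 ± 0.315, from 0.290 to 8.73 CPM. Igfbp3, the main carrier of IGF1 in blood, rose by 2.10 ± 0.311, from 0.941 to 4.08 CPM. Igfbp1, a carrier that insulin suppresses, rose by 0.11 ± 0.0371 in dKO (edgeR adjusted p = 0.0136) and fell by 0.19 ± 0.0373 in tKO against WT (edgeR adjusted p = 1.12e-05). Of the 20 STATs and liver factors, 18 were tested: 6 rose and 8 fell in dKO, with Stat3 (0.36 ± 0.0393) among the former and the hepatocyte regulator Hnf4a (−0.37 ± 0.0483) among the latter. Against dKO, Hnf4a rose in tKO by 0.50 ± 0.0477.

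In liver 0 of the 54 tested genes of this list passed edgeR, while DESeq2 called 3. An unadjusted p under 0.05 was seen for 13 of them, beside 2075 of all 15820 genes. Prlr stood at 251 ± 27.8 CPM in WT and 347 ± 74.3 in SMSrKO (0.47 ± 0.159, edgeR adjusted p = 0.259). The carriers Igfbp2 (0.86 ± 0.247, edgeR adjusted p = 0.193) and Igfbp1 (−1.23 ± 0.339, edgeR adjusted p = 0.197) had opposite signs. Cebpa, a hepatocyte transcription factor, was at 0.31 ± 0.0986 (edgeR adjusted p = 0.226).

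Among genes known to lie downstream of the sex-specific growth hormone pattern, most of the male-biased ones fell in both lesions. The labels state no sex for the hepatocyte mice, and reads of X-linked and Y-linked genes are given below. Of 22 tested male-biased genes, 17 fell and 2 rose in dKO (median −1.81), and 15 fell and 3 rose in tKO against WT (median −1.51). Over all genes the medians were −0.01 and 0.00, and 44.0% and 47.4% were called in either direction. The major urinary protein genes Mup3 (−1.97 ± 0.0379) and Mup15 (−2.63 ± 0.0447) and the protease inhibitor Serpina1e (−4.08 ± 0.0524) fell in dKO. In tKO Mup15 stood at 39.2 ± 3.12 CPM against 708 ± 23.9 in WT, while Mup20, darcin, stood at 1058 ± 56.1 against 41.0 ± 2.61 CPM. Mup and Cyp genes have near-identical copies, so reads may be split between them, which leaves each single value uncertain. The male-biased list holds several Mup genes, so its counts are not of independent genes. In tKO against dKO, 11 male-biased genes rose and 3 fell (median 0.36), where 29.5% of all genes were called.

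Female-biased genes were mostly lower in tKO, against WT and against dKO alike. Of 24 tested, 9 rose and 9 fell in dKO (median −0.06), and 3 rose and 19 fell in tKO against WT (median −1.69). In tKO against dKO 1 rose and 14 fell (median −1.30). Over all genes, 44.0%, 47.4% and 29.5% were called in these comparisons in turn. Cyp3a41a stood at 315 ± 11.6 CPM in WT, 485 ± 13.9 in dKO and 94.3 ± 4.77 in tKO. Cyp2b9 stood at 146 ± 5.02 CPM in WT, 114 ± 3.73 in dKO and 0.171 ± 0.0582 in tKO. Cyp2b13 had 43.4 ± 0.707 CPM in WT, 49.5 ± 2.99 in dKO and 0 counts in each tKO library, and against a floor of 3 counts per library it was at least 141-fold lower in tKO than in WT. The medians were the same with the 3 genes at 0 in tKO set to that floor. The steroid hydroxylase Cyp2a4 moved the other way, higher in tKO than in dKO by 0.89 ± 0.0366.

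Acute phase genes, which interleukin-6 induces through STAT3 and which Socs3 restrains, mostly rose in both lesions. Of 23 genes, 19 rose and 3 fell in dKO (median 0.62), and 15 rose and 6 fell in tKO against WT (median 0.28). For tKO against dKO 0 rose and 21 fell (median −0.44). Over all genes, 44.0%, 47.4% and 29.5% were called in these comparisons in turn. Summed, the list held 31169 to 33181 CPM in WT, 37495 to 38497 in dKO and 28868 to 29951 in tKO. Lcn2, lipocalin 2, rose from 712 ± 32.5 CPM in WT to 3114 ± 138 in dKO and 2217 ± 27.7 in tKO, and the C-reactive protein gene Crp from 265 ± 7.18 to 862 ± 25.5 and 721 ± 36.2 CPM. The fibrinogen gene Fga fell against WT in both, by 0.52 ± 0.0326 log2 in dKO and by 0.88 ± 0.0328 in tKO.

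In liver 0 of 17 male-biased, 0 of 25 female-biased and 0 of 23 acute phase genes passed edgeR, with 2, 3 and 7 at an unadjusted p under 0.05 and 0, 2 and 2 called by DESeq2. Over all 15820 genes, 2075 had an unadjusted p under 0.05 in edgeR. Mup20 stood at 90.5 ± 75.4 CPM in WT and 36.0 ± 12.3 CPM in SMSrKO (−1.33 ± 0.561, edgeR adjusted p = 0.374). The liver libraries held 384 to 681 CPM of Xist, the RNA of the inactive X chromosome, and the Y-linked Ddx3y, Eif2s3y, Kdm5d and Uty at 0 to 6 counts. By these genes the liver libraries read as female. The hepatocyte files held 0 genes with non-coding transcripts, so Xist could not be read there, and of the Y-linked genes Ddx3y alone was listed, with 1 count in 1 WT library. Almost no Y-linked RNA was thus read in hepatocytes, and the labels state no sex.

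**Figure D5:**
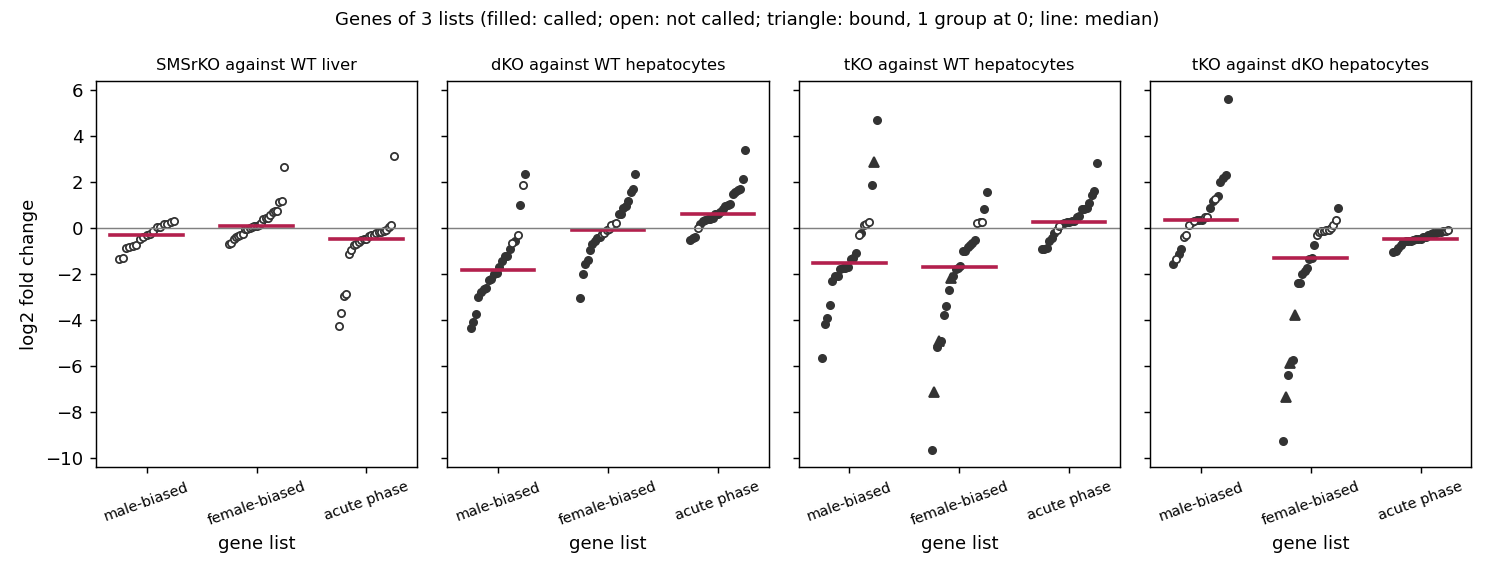
Log2 fold change of each tested gene of the male-biased, female-biased and acute phase lists in the 4 comparisons; filled symbols passed edgeR at an adjusted p under 0.05, open ones did not, triangles are lower limits of the change for genes with 0 counts in a group, and the line is the median. Male-biased genes lie mostly below 0 in dKO (median −1.81) and tKO (median −1.51), while the female-biased median is −0.06 in dKO and −1.69 in tKO against WT.

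Markers of other liver cells moved with the same comparisons. Over all genes, 44.0% were called for dKO against WT, 47.4% for tKO against WT and 29.5% for tKO against dKO. In WT, dKO and tKO hepatocytes in turn, the 10 endothelial markers summed to 25.8 to 27.1, 159 to 175 and 88.8 to 95.3 CPM, and the 10 macrophage markers to 122 to 137, 324 to 341 and 363 to 383 CPM. The 10 stellate and fibroblast markers summed to 24.5 to 28.9, 83.1 to 91.1 and 55.1 to 61.2 CPM, and the 6 cholangiocyte markers to 249 to 263, 377 to 395 and 246 to 261 CPM. Of 9 tested endothelial markers 9 rose in dKO and 8 in tKO, of 5 macrophage markers 5 and 5, of 5 stellate markers 4 and 4, and of 3 cholangiocyte markers 1 and 1, Sox9 in both, while Spp1 fell in tKO by 0.96 ± 0.0503 log2 (edgeR adjusted p = 3.1e-29). Vsig4, Acta2 and Lrat were at 0 in WT and Krt7 in tKO. Most of the macrophage sum was Cd68, at a mean of 100, 201 and 248 CPM in WT, dKO and tKO. Most of the rest was Mpeg1, at a mean of 122 CPM in dKO and 116 CPM in tKO. Of the 5 tested macrophage markers, Cd68 alone rose in tKO against dKO, while 2 fell and the median log2 fold change was −0.59. The higher macrophage sum in tKO than in dKO was thus not shared by most of these markers. The 8 hepatocyte markers summed to 55221 to 57172, 48507 to 49615 and 42892 to 45153 CPM. Most of that sum was Alb, at a mean of 48739, 41770 and 37624 CPM. Of these 8 markers, 2 rose and 2 fell in dKO, and 2 rose and 4 fell in tKO against WT. The part of these cells in the values of Socs3, Stat5a, Cish, Bcl6, Igfbp7 and Stc1, or in the lower values of Igf1 and Ghr, was not tested, and in bulk RNA fewer cells of a type and less RNA per cell cannot be told apart.

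The genes whose pattern was most like each member were taken by Pearson correlation of log2 CPM over the 9 hepatocyte libraries, among genes with a mean of at least 5 CPM. These points share 3 groups that differ for many genes at the test's threshold, so a high correlation is common and is given as a description. Igf1 was most like the transferrin gene Trf (r = 0.995), Mup2 (r = 0.994) and the antitrypsin gene Serpina1c (r = 0.994). Socs3 was most like the cyclin Ccng2 (r = 0.996), followed by Ralgds and Mxd1 (r = 0.994 each). Socs2 was most like Setd7 (r = 0.996), Sec63 and Rap2a. Stat5a, as listed, was most like Nfkbiz (r = 0.992), Ahr and Tmem2, and Ghr most like Coa5 (r = 0.985), Fto and Zcchc24. The closest genes were Sbno2 (r = 0.976) for Cish, Nfe2l1 (r = 0.987) for Bcl6, Hsd3b7 (r = 0.967) for Stat5b, Zfp385c (r = 0.975) for Cux2 and St3gal4 (r = 0.948) for Igfals. Mup2 stood at 391, 188 and 129 CPM in WT, dKO and tKO, beside 471, 254 and 200.1 CPM for Igf1.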

How the data were processed

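For liver, the authors deposited whole-number counts per gene, per the file headers, and a table of TPM. Hepatocyte files deposited by the authors gave expected counts, with transcript identifiers and lengths per the file headers, and FPKM. The submitters' processing notes name the builds mm10 and GRCm38 and, with no roles, DESeq2 1.30.1, Bowtie2 2.2.5, STAR 2.5.2b and Trimmomatic 0.36. The counting and its strand setting are not given in these sources. Reads of overlapping or near-identical genes may therefore be split.

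Expected counts (6.25% not whole) were rounded to whole numbers, and a gene missing from a hepatocyte file was given 0. Each experiment was fitted alone in edgeR 4.0.16 (R 4.3.3): filterByExpr with a minimum count of 10, TMM scaling, the robust quasi-likelihood F test, Benjamini and Hochberg adjustment over all tested genes, and a call at an adjusted p under 0.05. SE was derived as the absolute log2 change over the root of its F. CPM uses TMM-scaled library sizes. Alternatives were DESeq2 1.42.0, limma 3.58.1 on log2 TPM or FPKM with pseudocounts of 0.1 and 1, scaling by library totals, no filter, the liver dispersion, the compared groups alone, each library left out, and, added after seeing the data, Stat5a and Stat5b summed. The code was tested on simulated data.

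The members, lists and the rule for named genes were chosen with earlier results of these data known. That rule named all members, the 4 genes of each pathway, male-biased, female-biased and acute phase list with the smallest p in a comparison, Xist and Y-linked genes, and the 3 genes most like each member, of which the text gives a part. Samd8, Sox9, Spp1, Alb, Cd68, Mpeg1, the marker genes at 0, and Igfbp1 and Fga for dKO against WT were named after their values were seen. Lists of other cell types' markers held 5 to 10 genes. The lymphocyte list summed to 0.108 to 1.56 CPM in hepatocytes and 25.9 to 66.9 CPM in liver. Depth sets the counting error: Cux2 had 8 to 25 counts per hepatocyte library. Gene positions are from GENCODE release M21 for GRCm38, and promoter sequences from RefSeq.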

Additional observations from a re-analysis of the deposited data

How the results depend on the processing

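No paired analysis was possible because the groups compared share no replicate numbers; liver WT and hepatocyte WT share numbers but come from separate experiments and were not compared. In liver 0 members were called under each of 13 alternatives. In hepatocytes the number called ranged from 7 to 9 for dKO against WT, from 6 to 7 for tKO against WT and from 6 to 8 for tKO against dKO, under all alternatives except the liver dispersion. With that dispersion, edgeR's likelihood ratio test called 3 members for dKO against WT, 2 for tKO against WT and 0 for tKO against dKO, with 3, 4 and 1 at an unadjusted p under 0.05. The same setting gave 1055, 1221 and 326 calls over all genes against 5045, 5435 and 3382. With it, 1816, 2075 and 1053 of 11471 genes had an unadjusted p under 0.05. Among the other pathway genes it gave 8, 8 and 4 calls, among acute phase genes 11, 10 and 3, among female-biased genes 11 for dKO against WT and among male-biased genes 8 for tKO against dKO.

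With the Stat5 pair summed, Stat5b changed sign, to 0.20 for dKO against WT and −0.015 for tKO against dKO. Leaving out single libraries moved Cish in liver between −0.28 and 0.21, Bcl6 in tKO against WT between −0.035 and 0.044, and Igfals in tKO against dKO between −0.077 and 0.21, and none of these was called in the full fit. Over all liver genes, 37 calls among 15820 tested genes became 454 among 29544 in DESeq2, which was run without that filter, and 136 among 29594 in edgeR with no filter, and were 109 without WT 1, 23 without WT 3, 11 without WT 4, 13 without SMSrKO 5 and 15 without SMSrKO 7. In the liver lists with 0 calls, DESeq2 gave 3 pathway, 2 female-biased and 2 acute phase calls, no filter gave 1 acute phase call, and 1 call each appeared in the pathway list without WT 2, the female-biased list without WT 3 and the acute phase list without WT 1 or WT 3. Low counts limit Cux2 in hepatocytes, where the largest count in a library was 25.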

Other observations

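The length that the authors' files give for a gene varied between hepatocyte libraries for 7 of the 10 members. For Bcl6, with 2 listed transcripts, it was 4007 to 4150 bases in WT, 3785 to 3897 in dKO and 3741 to 3779 in tKO, so that WT did not overlap the lesions. For Ghr, with 3 listed transcripts, it was 1856 to 2007, 1969 to 2056 and 1995 to 2068 bases. Igfals, Socs3 and Cux2 had 1 length in all 9 libraries.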
